A study of Mus musculus with 3 samples.

Results

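The genes described here are 6 mouse genes of vitamin A handling, *Rbp2*, *Bco1*, *Lrat*, *Isx*, *Rdh7* and *Aldh1a1*, taken by their symbols from the 31053 genes of the count tables. Each symbol matched 1 gene. The experiment made 1 single-cell RNA library from each small intestinal segment (duodenum, jejunum, ileum). Each library held live cells (propidium iodide negative in the sort) of the epithelium, with the immune cells lying in it. All came from the same 3 pooled wild-type male C57BL/6N mice, 12 weeks old and with no treatment named. Strain, genotype, sex and age were thus shared. With 1 library per segment, effects of segment and library cannot be told apart. The share of barcodes kept was 44.8%, 53.6% and 84.1%, and depth and mitochondrial share differed too, as given below. Levels are given as unique molecular identifiers (UMIs, 1 per captured transcript) per 10000 UMIs of the cells concerned. The libraries tag the 3' end of each transcript, so a level was not divided by gene length.

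Dietary vitamin A arrives in the gut lumen as retinyl esters and as carotenoids. Enterocytes take up carotenoids through scavenger receptors such as SCARB1, cleave beta-carotene to retinaldehyde, reduce it to retinol, esterify the retinol and send the esters into chylomicrons. *Bco1* encodes the cleaving enzyme, *Rbp2* the cytosolic carrier of retinol and retinaldehyde in enterocytes, *Lrat* the enzyme that esterifies retinol bound to such a carrier, *Rdh7* a short-chain dehydrogenase of retinol, *Aldh1a1* an enzyme that oxidises retinaldehyde to retinoic acid, and *Isx* an intestine-specific homeobox factor known to be induced by retinoic acid and to repress *Bco1* and *Scarb1*.

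In GRCm38, *Rbp2* (ENSMUSG00000032454) lies on chr9:98486115-98509781, plus strand, *Bco1* (ENSMUSG00000031845) on chr8:117095854-117133720, plus strand, and *Isx* (ENSMUSG00000031621) on chr8:74873173-74893506, plus strand. *Lrat* (ENSMUSG00000028003) lies on chr3:82892579-82903973, minus strand, *Rdh7* (ENSMUSG00000040134) on chr10:127884028-127888817, minus strand, and *Aldh1a1* (ENSMUSG00000053279) on chr19:20492715-20643465, plus strand. Of the 91-base windows in the last 500 bases of their transcripts, none in 5 of the genes occurred in another annotated gene, and 0.608% of those of *Aldh1a1* occurred in its neighbour *Aldh1a7*.

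The promoters of *Bco1* and *Rbp2* are shown because they shared a run of letters that the promoters of the other members lacked. The windows below, from RefSeq (GRCm38.p6), hold 250 bases before the annotated start and 50 after it, on chr8:117095615-117095914 for *Bco1* and chr9:98490287-98490586 for *Rbp2*, both on the plus strand. Capitals mark the best match, on the minus strand, to a direct repeat of a nuclear receptor hexamer with a spacer of 1 base (AGGTCANAGGTCA).
Bco1: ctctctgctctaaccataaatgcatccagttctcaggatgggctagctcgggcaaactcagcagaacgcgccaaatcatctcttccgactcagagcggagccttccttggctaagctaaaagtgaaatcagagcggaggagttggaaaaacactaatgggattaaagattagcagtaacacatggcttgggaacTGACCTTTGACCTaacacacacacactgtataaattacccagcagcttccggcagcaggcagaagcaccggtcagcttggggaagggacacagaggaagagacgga
Rbp2: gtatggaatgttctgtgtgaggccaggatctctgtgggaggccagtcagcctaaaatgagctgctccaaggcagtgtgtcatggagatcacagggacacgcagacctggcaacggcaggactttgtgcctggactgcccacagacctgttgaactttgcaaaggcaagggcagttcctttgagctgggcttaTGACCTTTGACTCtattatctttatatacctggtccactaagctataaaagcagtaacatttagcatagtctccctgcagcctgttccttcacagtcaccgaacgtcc
In *Bco1* the marked 13 bases matched the repeat with 0 mismatches and began 56 bases before the start. In *Rbp2* they matched with 2 mismatches and began 58 bases before it. The first 11 of the marked bases, TGACCTTTGAC, were identical in both, and 12 of the 32851 promoters in the table (0.0365%) held this run on either strand. The full repeat stood in 13 of the 32851 promoters (0.0396%) with no mismatch and in 3.86% with up to 2. A TATAAA element also stood in both windows, 28 bases before the start in *Bco1* and 15 in *Rbp2*, against 13.6% of all promoters on either strand. None of the 6 promoter entries of *Lrat*, *Isx*, *Rdh7* and *Aldh1a1* held the repeat with up to 2 mismatches, the 11-base run or TATAAA. Over the 26 pairs of promoters of different members, the longest shared run had a median of 8 bases, and the 11 bases of *Bco1* and *Rbp2* were the longest. The run was found by looking, and these matches are a description of letters only.

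After the limits of the study on UMIs, genes and mitochondrial share, 16686 cells remained of 27235 barcodes, with 57079945 to 66148396 UMIs per library, and 4 to 12 kept barcodes were shared between any 2 libraries. The median UMIs per cell were 12424 (duodenum), 11737 (jejunum) and 5536 (ileum). The libraries stood apart in the mitochondrial share of UMIs, with medians of 27.1%, 27.2% and 11.1%. Clusters were named from marker lists that held none of the genes reported here, and these genes were left out of the genes used to cluster. The named cells included 10753 enterocytes, 1103 early enterocytes, 750 goblet cells, 299 tuft cells, 171 enteroendocrine cells (EECs), 202 intestinal stem and proliferating cells (ISC/proliferating cells) and 1234 T cells, and 1313 cells stayed unnamed. T cells, which are not absorptive cells, were taken as a measure of the background that free RNA leaves in a droplet. The 13 enterocyte markers stood at a median of 28.3%, 8.70% and 13.8% of their enterocyte level in T cells of duodenum, jejunum and ileum. In ISC/proliferating cells they stood at 3.79%, 2.16% and 1.79%, and in ileal dendritic cells at 0.908%. The measure thus differed between classes, and subtracting the T cell level may take away too much.

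*Rbp2* was by far the most abundant of the 6 genes. In enterocytes it stood at 40.7 UMIs per 10000 in duodenum, 117 in jejunum and 31.0 in ileum, and 84.3% of its UMIs came from enterocytes and 13.1% from early enterocytes. *Aldh1a1* followed at 0.705, 1.28 and 2.00, and *Rdh7* at 0.932, 0.797 and 0.541. *Isx* stood at 0.268, 0.523 and 1.01 in the 3 segments. *Bco1* was at 0.513, 0.184 and 0.0735, and *Lrat* at 0.388, 0.177 and 0.159. These orders already differ between segments, since *Isx* was the lowest member in the duodenum and the third highest in the ileum. Over all segments, 91.4% of the *Bco1* UMIs and 76.2% of the *Lrat* UMIs were in enterocytes.

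The first comparison asked in which cell classes the genes were high. UMIs were summed per library and class, and enterocytes were set against each other class with the library as a block (edgeR's quasi-likelihood test, Benjamini-Hochberg over 11736 genes). The libraries are 3 segments of the same mice. The block takes out differences between whole libraries. The p-values thus rest on how far the differences between classes varied from library to library, and not between mice. The classes came from other genes of the same cells. All 6 members were higher in enterocytes than in T cells, where 38.1% of all genes tested were higher in enterocytes and 26.9% higher in T cells. All 6 were also higher than in tuft cells (background 32.1%, and 18.8% higher in tuft cells) and than in ISC/proliferating cells (background 39%, and 27.2% the other way), although there the calls for *Isx* and *Lrat* did not pass in 9 and 4 of 13 alternatives and the *Isx* level was lower in the enterocytes of duodenum and jejunum. Against goblet cells 5 of 6 were higher (background 28.3%, and 14.7% higher in goblet cells), the exception being *Isx*. Against EECs 5 of 6 were higher (background 33%, and 23.3% higher in EECs), the exception being *Bco1*. No member was higher in any of these 5 classes than in enterocytes. The *Bco1* calls rested on the duodenum in part, since without it the log2 fold was 2.19 against goblet cells (edgeR adjusted p = 0.0559) and 1.67 against tuft cells (edgeR adjusted p = 0.184). The median log2 fold over the members was 2.9 against goblet cells, where the median over all genes was 0.28, and 4.50 against ISC/proliferating cells, where it was 0.38. Across the 6 class comparisons TMM scaling set the median of all genes at 0.28 to 0.38 and library totals alone at -0.76 to 0.08, and the share of calls that were higher in enterocytes ran from 58.6% to 65.8% with TMM, from 39.2% to 49.3% with RLE and from 22.9% to 53.9% with library totals.

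The carrier *Rbp2* had the steepest step from the crypt. ISC/proliferating cells held 2.19, 2.41 and 0.31 UMIs per 10000 in duodenum, jejunum and ileum, all below the enterocyte range of 31.0 to 117. The log2 fold of enterocytes against them was 6.47 ± 0.74 (SE, edgeR adjusted p = 4.9e-09). The SE here and below is the size of the log2 fold divided by the square root of the test's F statistic. It comes from 1 fit over all sums and is not a spread over 3 libraries. In goblet cells *Rbp2* stood at 7.63, 15.2 and 4.82, in tuft cells at 7.88, 16.6 and 2.28 and in T cells at 9.32, 8.89 and 4.02. These levels followed the order of the enterocyte levels in goblet and tuft cells, and in goblet cells they were 18.8%, 13.0% and 15.6% of the enterocyte level of the same library, beside medians of 11%, 11.4% and 6.81% for the enterocyte markers.

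*Bco1* departed from the other members in EECs, the hormone-secreting cells of the epithelium. EECs held 0.507, 0.477 and 0.447 *Bco1* UMIs per 10000 in duodenum, jejunum and ileum, nearly level across segments, whereas enterocytes held 0.513, 0.184 and 0.0735. The ratio of EECs to enterocytes was 0.988 in the duodenum (95% interval 0.703 to 1.35, for counting error only), 2.59 in the jejunum (1.41 to 4.36) and 6.08 in the ileum (4.14 to 8.69). Over the libraries the log2 fold of enterocytes against EECs was -0.29 ± 0.61 (SE, edgeR adjusted p = 0.715), so no difference was called in either direction. The counts behind this were small, with 40, 14 and 35 *Bco1* UMIs in 53, 24 and 94 EECs. T cells held 2, 0 and 3 *Bco1* UMIs, or 0.106, none (which allows up to 0.0497) and 0.00562 per 10000. The ileal EECs therefore stood above every other class of that library, enterocytes included. Jejunal tuft cells, with 11 *Bco1* UMIs at 0.195 per 10000, stood near the jejunal enterocyte level, and the duodenal and ileal tuft cells had 3 and 0 UMIs. The enterocyte markers stood at 17.4%, 12.8% and 10.5% of their enterocyte level in EECs, and the other 5 members were higher in enterocytes by 2.71 to 4.00 on the log2 scale (adjusted p of 7.81e-05 or less in each, edgeR).

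Within EECs the *Bco1* signal was spread over hormone types. Cells above the study's hormone thresholds held 0.524 *Bco1* UMIs per 10000 for *Gip*, 0.42 for *Cck*, 0.447 for *Sst*, 0.489 for *Gcg*, 0.372 for *Tph1* and 0.408 for *Nts*, with counting intervals that all overlapped. The sets hold 10 to 64 cells each and share cells. The serum retinol carrier *Rbp4* was lowest in *Tph1* cells, at 1.76 UMIs per 10000 over the libraries. It stood at 23.0 in *Gip*, 18.4 in *Cck*, 15.3 in *Sst*, 10.4 in *Gcg* and 6.36 in *Nts* cells, values that mix segments. Of the 191 *Rbp4* UMIs in *Gcg* cells, 170 lay in 2 jejunal cells (35.2 per 10000, above the jejunal *Gip* cells). The 9 ileal *Gcg* cells stood at 1.23, and the 2 ileal *Sst* cells held no *Rbp4* UMI. By segment (duodenum, jejunum and ileum) *Rbp4* was 33.0, 21.5 and 6.06 in *Gip* cells and 29.3, 21.3 and 1.14 in *Cck* cells. In *Nts* cells it was 17.7, 18.9 and 2.11, from 2, 8 and 54 cells. In the 48 *Tph1* cells, 69 of the 71 *Rbp4* UMIs lay in 1 duodenal cell.

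*Isx* was not confined to absorptive cells. Goblet cells held 0.415, 0.431 and 0.76 UMIs per 10000 and ISC/proliferating cells 0.573, 0.749 and 0.688, against 0.106, 0.0497 and 0.17 in T cells. The goblet and crypt values thus lay above every T cell value. Enterocytes and goblet cells did not differ beyond the spread, with a log2 fold of 0.29 ± 0.32 (edgeR adjusted p = 0.502) that turned to -0.06 with RLE size factors. Enterocytes against ISC/proliferating cells gave 0.79 ± 0.33 (edgeR adjusted p = 0.0374), a call that did not pass in 9 of 13 alternatives, the value turning to -0.34 with library totals alone and to -0.06 without the ileum (0.46, adjusted p = 0.337, without the jejunum). The segments went apart here, since the ratio of ISC/proliferating cells to enterocytes was 2.14 in the duodenum (1.72 to 2.64) and 0.679 in the ileum (0.551 to 0.829). Tuft cells (0.0507, 0.0884 and 0.164) and EECs (0.101, 0 and 0.115) were near the T cell level.

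*Lrat* was likewise present in the crypt. ISC/proliferating cells held 0.272, 0.187 and 0.179 UMIs per 10000, close to the 0.388, 0.177 and 0.159 of enterocytes, and only the duodenal ratio, 0.701, had a counting interval below 1 (0.509 to 0.942). The fitted log2 fold of 1.21 ± 0.36 in favour of enterocytes (edgeR adjusted p = 0.00434) was 0.11 (adjusted p = 0.823) with library totals alone and 0.89 (adjusted p = 0.135) without the jejunum. The enterocyte markers stood at a median of 1.79% to 3.79% of their enterocyte level in these cells. In goblet cells, tuft cells and EECs *Lrat* ranged from 0 to 0.0845.

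Early enterocytes, named from defence genes of the lower villus such as *Reg3b* and *Reg3g*, differed from enterocytes in both directions. *Bco1* was lower in them, at 0.0768, 0.00259 and 0.0329 UMIs per 10000, with a log2 fold of 2.94 ± 0.62 in favour of enterocytes (edgeR adjusted p = 0.000296, 27.9% of all genes being higher in enterocytes). *Rdh7* was higher in them, at 2.09, 3.22 and 1.29 against 0.932, 0.797 and 0.541, with a log2 fold of -1.04 ± 0.33 (edgeR adjusted p = 0.0117, 17.3% of all genes being higher in early enterocytes). This call was lost without the jejunum, at -0.93 and an edgeR adjusted p = 0.111. The other 4 members passed in neither direction, although without the ileum *Aldh1a1* passed as higher in early enterocytes (-1.06, edgeR adjusted p = 0.0125). For *Rbp2* the segments lay far apart, since early enterocytes held 49.0 UMIs per 10000 in duodenum and 96.7 in jejunum but 1.69 in ileum, 5.47% of the ileal enterocyte level.

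In the order of mean levels over the 10 classes with at least 10 cells in every library, most neighbours overlapped in their range over libraries. For *Rdh7*, early enterocytes (1.29 to 3.22) lay wholly above enterocytes (0.541 to 0.932), and enterocytes wholly above EECs (0.102 to 0.494). For *Aldh1a1*, early enterocytes (1.29 to 3.94) and enterocytes (0.705 to 2.00) overlapped each other and lay above Paneth cells (0.0968 to 0.62). For *Isx*, goblet cells (0.415 to 0.76) lay above Paneth cells (0.282 to 0.377), which lay above T cells.

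**Figure D1:**
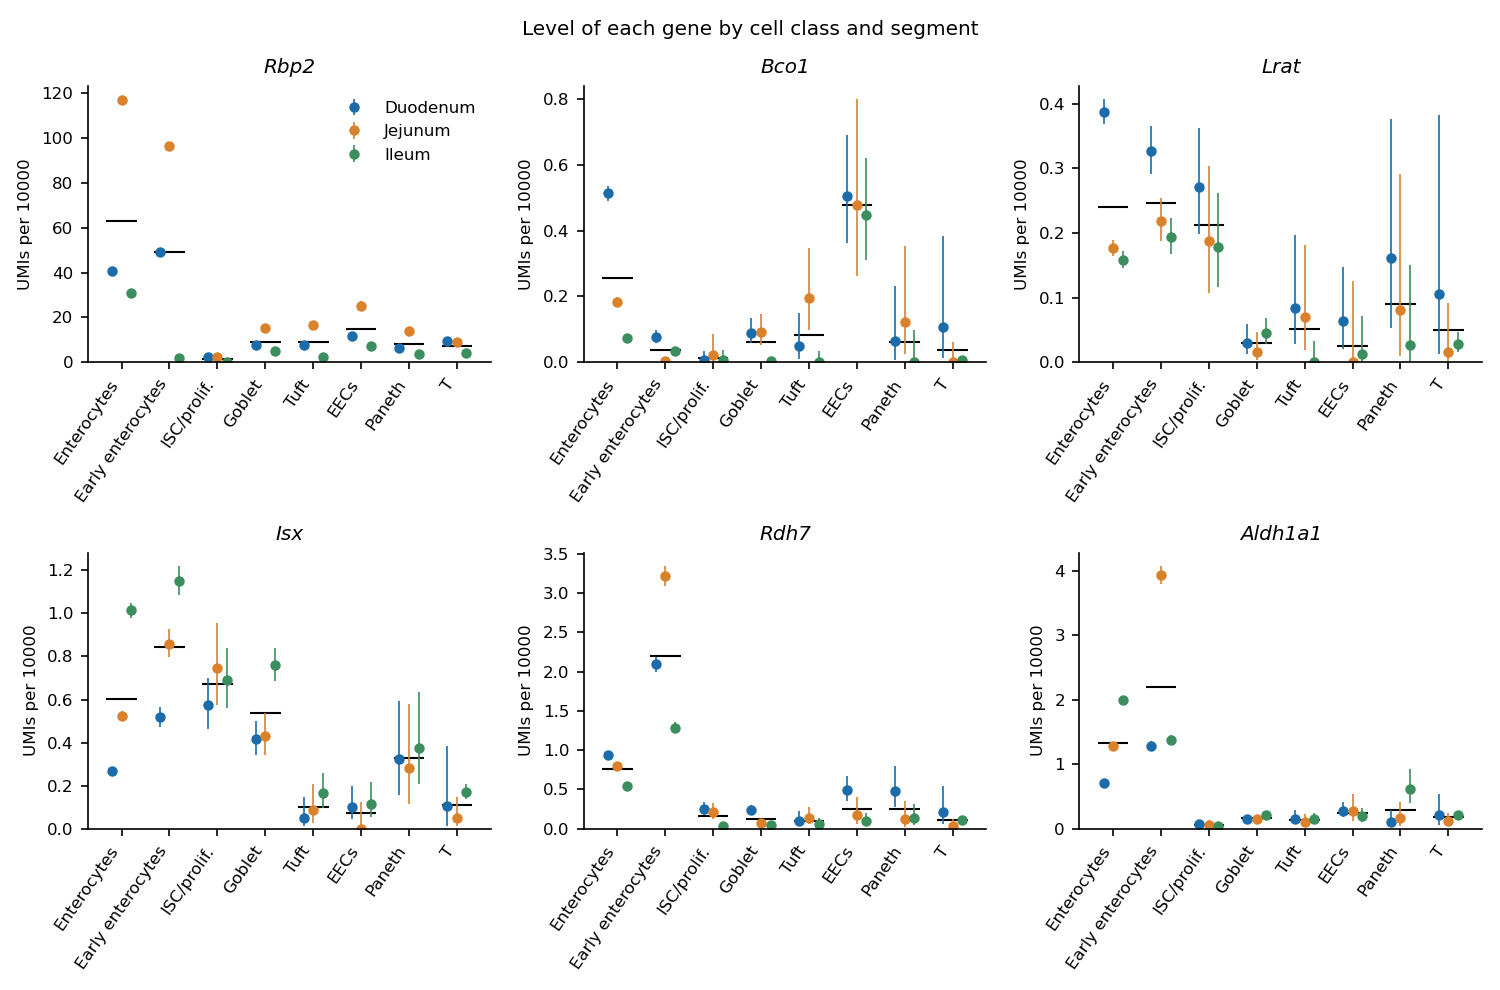
Level of each gene in UMIs per 10000 UMIs (vertical axis, a scale of its own in each panel) in 8 cell classes. Points are the 3 libraries with exact 95% Poisson intervals for counting error, and the black bar is their mean. *Bco1* in EECs sits at 0.447 to 0.507 in all 3 segments, and *Isx* reaches goblet and ISC/proliferating cells.

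The second comparison followed the genes along the villus. Each absorptive cell (enterocytes and early enterocytes, 3620 to 4612 per library) received a score from 10 landmark genes of the tip and 7 of the bottom, none of them a vitamin A gene reported here, and each library was cut into 3 equal zones called bottom, middle and tip. These are zones by expression and not by position. The bottom landmarks *Reg3b*, *Reg3g*, *Reg1*, *Lypd8*, *Nlrp6* and *Ccl25* were also markers that named early enterocytes. The tip landmark *Apoa4* was also an enterocyte marker. The zones are therefore not independent of the comparison of enterocytes with early enterocytes. *Rdh7* fell towards the tip in every segment, from 1.74 UMIs per 10000 at the bottom to 0.995 in the middle and 0.289 at the tip in the duodenum. In the jejunum it went from 2.29 to 0.525 and 0.147, and in the ileum from 1.33 to 0.39 and 0.0771. All 3 bottom values lay above all 3 tip values, and the log2 fold of tip against bottom was -3.12 ± 0.25 (SE, edgeR adjusted p = 5.16e-05).

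*Aldh1a1* fell in the same direction. It went from 1.17 at the bottom to 0.294 at the tip in the duodenum, from 3.13 to 0.324 in the jejunum and from 2.59 to 0.624 in the ileum, a log2 fold of -2.03 ± 0.26 (edgeR adjusted p = 0.000285). *Lrat* fell from 0.415 to 0.198, from 0.265 to 0.0699 and from 0.21 to 0.0829, a log2 fold of -1.0 ± 0.15 (edgeR adjusted p = 0.000645). The lowest bottom value of *Lrat*, in the ileum, lay just above the highest tip value, in the duodenum.

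*Bco1* went the other way. It rose from 0.17 at the bottom to 0.464 in the middle and 0.863 at the tip of the duodenum. In the jejunum it went from 0.0888 to 0.248 and 0.157, and in the ileum from 0.0439 to 0.0802 and 0.0796. The log2 fold of tip against bottom was 1.87 ± 0.29 (edgeR adjusted p = 0.000725). The groups overlapped across segments, since the duodenal bottom lay above the jejunal and ileal tips. Within each library the tip lay above the bottom, but only the duodenum rose further from middle to tip. With *Reg3b*, *Reg3g* and *Reg1* left out of the landmarks, the jejunal ratio of tip to bottom was 1.11 (counting interval 0.909 to 1.34). The duodenal and ileal ratios were then 5.62 and 2.05. With early enterocytes left out the jejunal ratio was 1.02 (0.848 to 1.23). By the fitted test, 1 of 6 members was higher at the tip, where 29.1% of 11477 genes were, and 3 of 6 were higher at the bottom, where 33.6% were.

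*Rbp2* and *Isx* passed in neither direction. *Rbp2* stood at 44.4 at the bottom and 49.0 at the tip in the duodenum and at 113 and 112 in the jejunum, but at 10.2 and 31.8 in the ileum, and the log2 fold was 0.91 ± 0.42 (edgeR adjusted p = 0.0898, passing at 0.0192 with DESeq2). *Isx* stood at 0.356 and 0.297, at 0.649 and 0.506 and at 1.19 and 0.855, lower at the tip in all 3 libraries as a level, while the fitted log2 fold was 0.07 ± 0.13 (edgeR adjusted p = 0.632) with TMM scaling and -0.37 (edgeR adjusted p = 0.0259) with library totals alone. TMM scaling placed the median gene at -0.08 and library totals alone at -0.52, and the share of calls that were higher at the tip moved from 46.4% to 25.6%. Members that passed kept their direction under both scalings.

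The steps between neighbouring zones were smaller, and calls for them were lost when single libraries were left out. Middle against bottom gave -1.43 ± 0.23 for *Rdh7* (edgeR adjusted p = 0.00297), -0.81 ± 0.25 for *Aldh1a1* (adjusted p = 0.036) and 1.47 ± 0.29 for *Bco1* (adjusted p = 0.00599), so that 1 member was higher in the middle (17.1% of all genes) and 2 at the bottom (19.5%). Tip against middle gave 3 members higher in the middle (5.52% of all genes) and none higher at the tip (6.09% of all genes), namely *Rdh7* (-1.69 ± 0.24), *Aldh1a1* (-1.22 ± 0.25) and *Lrat* (-0.94 ± 0.15), with edgeR adjusted p of 0.0251, 0.0317 and 0.0251. Without the jejunum none of the 3 steps from bottom to middle passed (adjusted p of 0.0565 for *Bco1*, 0.0667 for *Rdh7* and 0.277 for *Aldh1a1*), and that of *Aldh1a1* did not pass without the duodenum either (0.0767). The tip against middle calls were lost without the jejunum (adjusted p of 0.153 to 0.156) and without the ileum (0.13), where none of the 11596 and 11275 genes tested passed in either direction (2290 and 2832 had an unadjusted p under 0.05), and the members' log2 folds were -0.89 to -1.73 and -0.99 to -1.55. The call for *Aldh1a1* was also lost without the duodenum (-1.27, edgeR adjusted p = 0.0572).

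Cutting the score into 5 equal steps, from 1 at the lowest score to 5 at the highest, showed where along it the levels turned. In the duodenum *Bco1* went from 0.103 in step 1 to 0.355, 0.413, 0.722 and 0.93 in steps 2 to 5. In the jejunum it was highest in step 3, at 0.263. Ileal *Rbp2* stood at 4.19 in step 1 and at 28.4, 40.4, 35.6 and 29.8 in the next, so that the low value was that of step 1 alone. Ileal *Aldh1a1* was highest in step 2, at 3.35, against 2.19 in step 1 and 0.462 in step 5. *Lrat* stood at 0.481, 0.267 and 0.22 in step 2, with counting intervals that overlapped those of a neighbouring step in each segment.

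**Figure D2:**
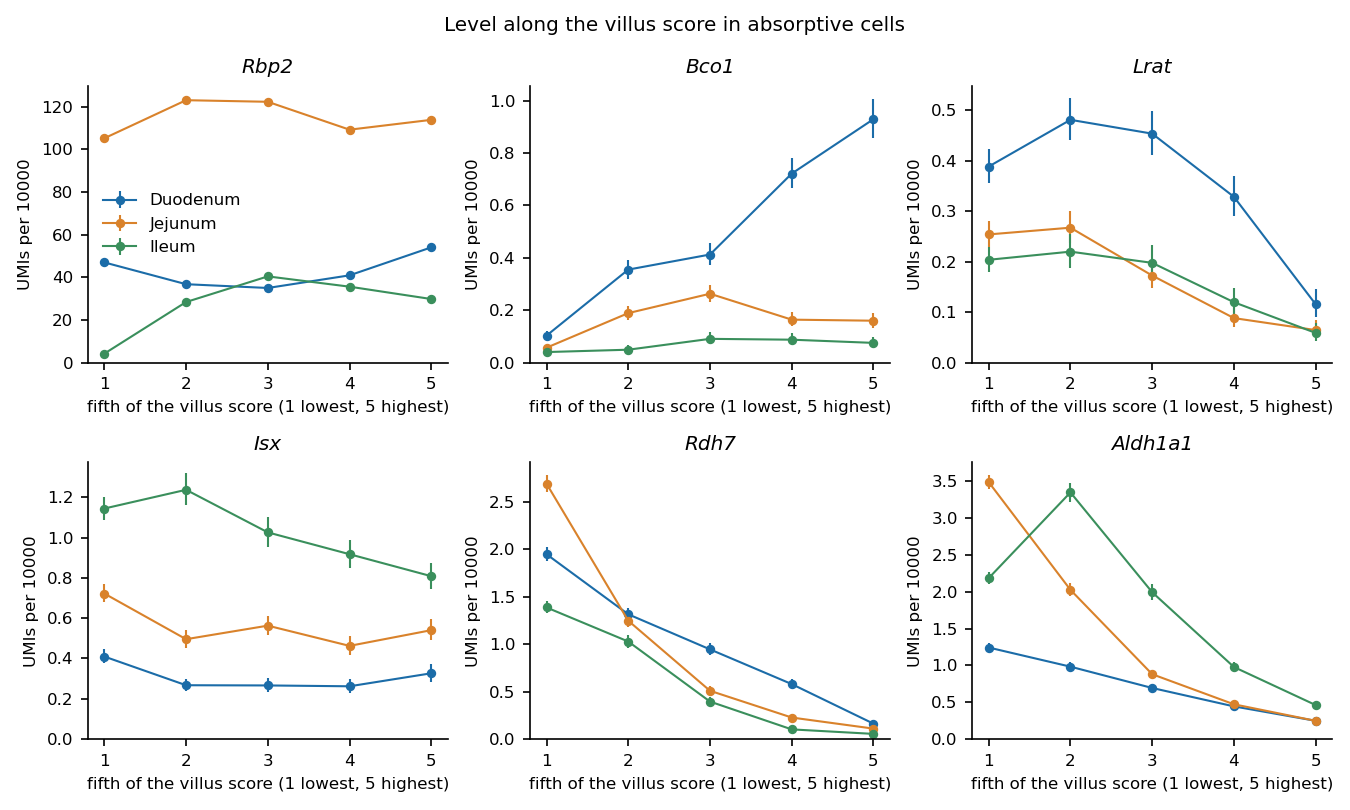
Level in UMIs per 10000 UMIs (vertical axis, a scale of its own in each panel) over 5 equal steps of the villus score in absorptive cells (horizontal axis, lowest score at the left), 1 line per library with exact 95% Poisson intervals. *Rdh7* falls in all 3 segments, duodenal *Bco1* climbs to 0.93, and ileal *Rbp2* starts at 4.19.

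Early enterocytes made up 284 to 407 of the 1207 to 1538 cells of each bottom zone and at most 20 of any other zone. With zones set over enterocytes alone, a choice made after seeing the data, *Rdh7* (-2.96), *Aldh1a1* (-2.03), *Lrat* (-1.23) and *Bco1* (1.27) passed again (edgeR adjusted p of 0.000101, 0.000102, 0.000211 and 0.00317), and *Rbp2* passed as well (0.68, adjusted p = 0.0276). The ileal tip to bottom ratio of *Rbp2* then fell from 3.13 to 1.47, and the *Bco1* ratio from 5.06 to 3.18 in the duodenum and from 1.77 to 1.02 in the jejunum. Depth moved with the zones in the upper gut, with a median of 16319 UMIs per cell at the bottom and 9108.5 at the tip of the duodenum, 16043 and 11161 in the jejunum and 7884.5 and 6969 in the ileum. Its part in the differences was not tested.

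The size of the gradients differed between segments, which with 1 library each could not be tested. The tip to bottom ratio of *Bco1* was 5.06 in the duodenum (95% counting interval 4.49 to 5.72), 1.77 in the jejunum (1.45 to 2.16) and 1.81 in the ileum (1.34 to 2.46). That of *Rdh7* was 0.166 in the duodenum (0.149 to 0.186), 0.0642 in jejunum and 0.0578 in ileum. *Aldh1a1* fell most in the jejunum, with a ratio of 0.104 (0.0939 to 0.114) against 0.252 and 0.241. For *Lrat* the ratios were 0.477, 0.264 and 0.395.

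**Figure D3:**
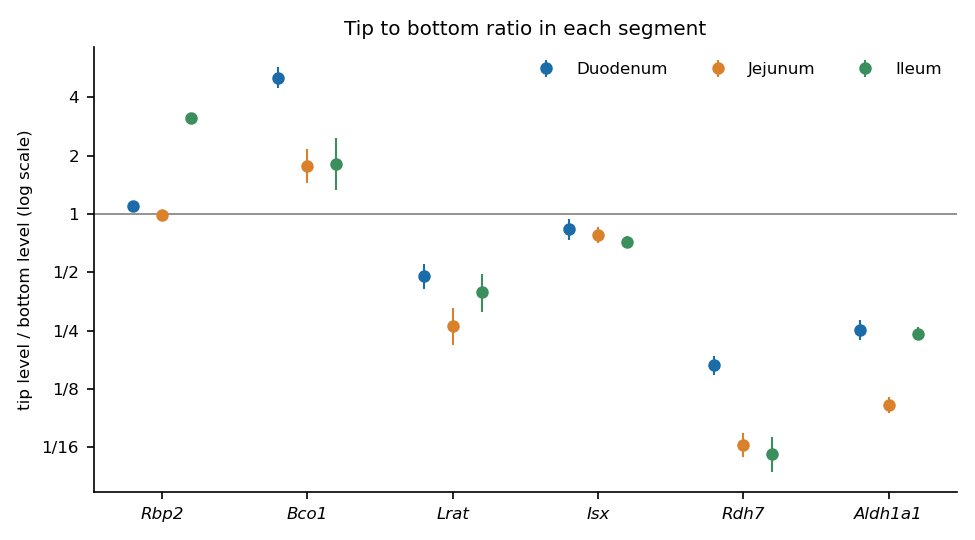
Tip level divided by bottom level (vertical axis, log scale) for each gene in each library, with exact 95% intervals for counting error. Points above the line at 1 are higher at the tip. The 3 *Bco1* points lie above it, at 1.77 to 5.06, and all *Lrat*, *Rdh7* and *Aldh1a1* points below it.

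The third comparison set the segments side by side in enterocytes. With 1 library per segment there is no test, and the intervals cover counting error only. *Bco1*, *Lrat* and *Rdh7* were highest in the duodenum and lowest in the ileum. For *Rdh7* the order of duodenum and jejunum (ratio 1.17) turned with T cell levels subtracted (0.943) and with at most 20% mitochondrial UMIs per cell (0.877). *Isx* and *Aldh1a1* were lowest in the duodenum and highest in the ileum. *Rbp2* was highest in the jejunum. Of the 6 members, 3 differed at least 2-fold between duodenum and jejunum (19.5% of all genes with at least 50 UMIs did), 2 between jejunum and ileum (17.7%) and 4 between duodenum and ileum (30.1%).

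The ratio of duodenum to ileum was 6.98 for *Bco1* (95% interval 6.11 to 8.0), from 2062 and 246 UMIs. For *Isx* it was 0.264 (0.247 to 0.283), from 1077 and 3392 UMIs. *Bco1* and *Isx* thus ran in opposite order over the 3 segments, and a link between them was not tested. The ratio of duodenum to ileum was 2.44 for *Lrat* (2.21 to 2.70), 1.72 for *Rdh7* (1.63 to 1.82) and 0.352 for *Aldh1a1* (0.337 to 0.368). For *Rbp2* it was 1.31, and the ratio of jejunum to ileum was 3.78 (3.76 to 3.81). *Lrat* did not differ between jejunum and ileum beyond its counting error, with a ratio of 1.12 (0.997 to 1.25).

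Some of these ratios changed within villus zones. *Rbp2* was 4.37 times higher in the duodenum than in the ileum at the bottom, 0.895 times in the middle and 1.54 times at the tip. *Bco1* was 3.88 times higher in the duodenum than in the ileum at the bottom and 10.8 times at the tip. *Isx* kept its order in each zone, with ratios of duodenum to ileum of 0.299, 0.269 and 0.347. *Rdh7* was lower in the duodenum than in the jejunum at the bottom, with a ratio of 0.758, and higher in the middle and at the tip, at 1.9 and 1.96. *Aldh1a1* was higher in the jejunum than in the ileum at the bottom, at 1.21, and lower elsewhere.

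The ileal library had the lower mitochondrial share. The T cell level of a member was 20.6% to 39.5% of its enterocyte level in the duodenum, 0% to 9.51% in the jejunum and 7.64% to 19.4% in the ileum. The duodenal T cell level rested on 35 T cells with 2 to 4 UMIs of each member other than *Rbp2*. With the T cell level subtracted, the ratio of duodenum to ileum was 5.99 for *Bco1* and 0.192 for *Isx*, and *Rdh7* stood at 0.721 in the duodenum and 0.764 in the jejunum. With UMIs of nuclear genes alone as the denominator it was 8.27 for *Bco1* and 0.313 for *Isx*. With at most 20% mitochondrial UMIs per cell, which left 539 duodenal and 544 jejunal enterocytes, the *Bco1* ratio of jejunum to ileum fell from 2.51 to 1.11.

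**Figure D4:**
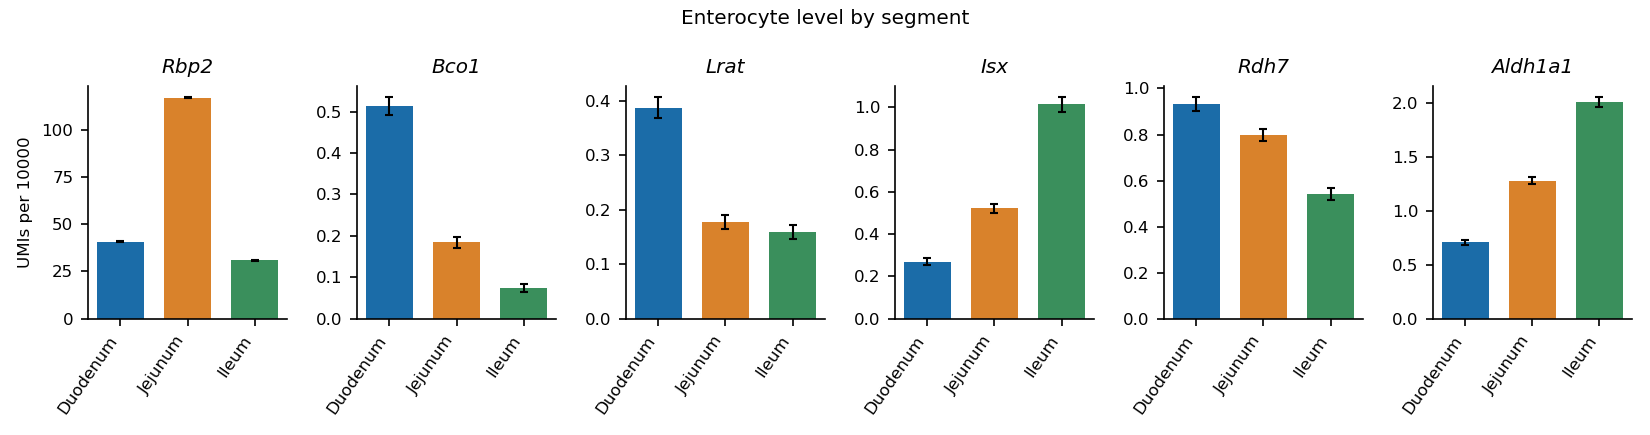
Level of each gene in enterocytes of each segment in UMIs per 10000 UMIs (bars from 0, a scale of its own in each panel), with exact 95% Poisson intervals for counting error. *Bco1*, *Lrat* and *Rdh7* step down from duodenum to ileum (the step of *Rdh7* from duodenum to jejunum turns with T cell levels subtracted and with at most 20% mitochondrial UMIs), *Isx* and *Aldh1a1* step up, and *Rbp2* peaks at 117 in the jejunum.

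The share of cells with at least 1 UMI is a measure apart from the level. *Rbp2* was found in 99.8%, 100.0% and 93.7% of enterocytes, and in 77.1%, 80.7% and 32% of T cells. After each cell was thinned to 800 UMIs the shares were 85.8%, 98.6% and 70.8% of enterocytes and 31.4%, 22.9% and 10.6% of T cells. Thinned ileal early enterocytes, at 10.2%, were at the share of ileal T cells, against 86.2% and 87.7% in duodenum and jejunum. *Rdh7* was found in 5.75%, 4.59% and 3.52% of thinned enterocytes and in 16.2%, 27% and 10.7% of thinned early enterocytes, with 0%, 0.917% and 0.917% in T cells. For *Bco1* the thinned enterocyte shares were 3.61%, 1.38% and 0.381%, and in thinned EECs 1, 0 and 3 cells had a UMI, which is too few to order them. Without thinning, 45.3%, 33.3% and 25.5% of EECs had a *Bco1* UMI, against 18.7%, 7.8% and 4.59% of enterocytes and 5.71%, 0% and 0.275% of T cells, at median depths of 15724, 11027.5 and 4519.5 UMIs in EECs, 12026, 12020 and 6304 in enterocytes and 4089, 4624 and 4240 in T cells.

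The genes whose level ran most like each member were taken by Pearson's r of log2(UMIs per 10000 + 0.01) over 24 sums of library and class or zone, among 11735 genes. The sums share libraries and free RNA, so r is a description. For *Rbp2* these were *Sec14l2*, a lipid-binding protein gene (r = 0.969), *Asah2*, a neutral ceramidase (0.947), and *Cdr2* (0.935). For *Aldh1a1* they were *Mpp1* (0.926), the scaffold *Pdzk1* (0.916) and *Mogat2* of triglyceride synthesis (0.904). For *Lrat* they were *Slc25a3*, the mitochondrial phosphate carrier (0.902), the bicarbonate cotransporter *Slc4a4* (0.894) and *Hdhd3* (0.881). For *Rdh7* they were ketohexokinase, *Khk* (0.887), the amino acid transporter *Slc7a8* (0.885) and *Fahd1* (0.883). For *Isx* they were *Dnmbp* (0.885), *Plxna1* (0.854) and *Adgrg7* (0.832), and for *Bco1* they included the iron regulatory protein gene *Ireb2* (0.842) and *Fnip1* (0.842). Between members r was highest for *Rdh7* and *Aldh1a1* (0.759) and lowest for *Bco1* and *Isx* (-0.24).

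Beside the members, of 49 other genes of retinoid handling, 35 had enough UMIs for at least 1 fit and 32 passed in at least 1 contrast, while 2 (*Crabp1* and *Rdh16f1*) had no UMI in any kept cell. *Ces2e*, a carboxylesterase, stood at 8.49, 12.5 and 11.9 UMIs per 10000 in enterocytes of duodenum, jejunum and ileum, and *Dgat1*, an acyltransferase that can also esterify retinol, at 8.38, 10.2 and 9.08. Both were higher in enterocytes than in each of the 6 classes tested against them. *Retsat*, which saturates retinol, stood at 1.57, 1.42 and 0.576.

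The number of genes of the list higher in enterocytes was 20 of 31 tested against T cells, 19 against tuft cells, 18 against goblet cells, 17 against EECs, 16 against ISC/proliferating cells and 9 against early enterocytes. Over all genes the shares higher in enterocytes were 38.1%, 32.1%, 28.3%, 33%, 39% and 27.9%, so that the 9 of 31 against early enterocytes lay near the background. The number higher in the other class was 2, 2, 2, 6, 5 and 5 of 31, beside 26.9%, 18.8%, 14.7%, 23.3%, 27.2% and 17.3% of all genes. The list's median log2 fold was 2.5 against T cells and 0.32 against early enterocytes, where the medians over all genes were 0.34 and 0.28.

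Of 31 genes of the list tested, 6 were higher in EECs than in enterocytes, beside 23.3% of all genes. Some of them were also higher than in enterocytes in other classes. *Stra6l* was so in goblet, tuft and ISC/proliferating cells, and *Ttr* in goblet and ISC/proliferating cells. *Rbp4* stood at 15.0, 15.9 and 3.01 UMIs per 10000 in EECs and at 0.00149, 0.000913 and 0.00418 in enterocytes (6, 4 and 14 UMIs), a log2 fold of -11.06 for enterocytes against EECs. *Ttr*, the plasma partner of RBP4, stood at 6.26, 1.63 and 0.498 in EECs. *Scarb1* stood at 0.747, 1.02 and 0.332 in EECs, and *Stra6l*, a receptor-like gene for RBP4, at 0.431, 0.306 and 0.536. *Rdh12*, with 14 UMIs in EECs, was higher there too, as it was in T cells. It lies outside the naming rule and was named after its values were seen. *Scarb1* and *Bco1* were thus both above the enterocyte level in EECs of the ileum, where *Scarb1* had 3 UMIs in all enterocytes. They differed in the hormone types that held them. Of the 26 *Scarb1* UMIs of ileal EECs, 19 lay in the 8 *Gip* cells, which held 7 of the 35 *Bco1* UMIs. The 54 ileal *Nts* cells held 1 *Scarb1* UMI and 18 *Bco1* UMIs. Whether single cells held both was not tested.

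Tuft cells, the chemosensory cells of the epithelium, held *Adh1*, a retinol-oxidising alcohol dehydrogenase, at 24.4, 22.2 and 10.3 UMIs per 10000, against 1.44, 1.08 and 0.143 in enterocytes (log2 fold of enterocytes against tuft cells -4.10). *Stra6l* was the other gene higher in tuft cells, at 0.287, 0.813 and 1.04. In ISC/proliferating cells *Rbp7*, another cytosolic retinol carrier, stood at 1.44, 0.76 and 0.351, above early enterocytes (0.426, 0.255 and 0.219), while enterocytes held 35 UMIs in all (log2 fold -6.82 against ISC/proliferating cells). *Aldh1a2*, the retinoic acid enzyme of gut dendritic cells, and *Cyp26b1*, which degrades retinoic acid, stood at 0.4 and 0.502 in the 81 dendritic cells and had 0 and 18 UMIs in all enterocytes. Both were named after their values were seen.

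Along the villus 14 of 30 tested genes of the list were higher at the bottom (33.6% of all genes) and 6 at the tip (29.1% of all genes). Among those higher at the bottom were *Bco2*, the carotenoid 9',10' oxygenase (0.468 at the bottom and 0.0875 at the tip over the libraries, log2 fold -2.5), *Ces1f* (0.873 and 0.0862, -3.82), *Dhrs4* (1.07 and 0.354, -1.13), *Rdh11* (0.318 and 0.0954, -1.37), *Dhrs3* (0.474 and 0.238, -0.59), *Adh1* (1.64 and 0.471, -1.33), *Retsat* (1.53 and 0.639, -0.72) and *Rbp7* (0.13 and 0.00185, -5.65). Among those higher at the tip were *Scarb1* (0.0706 and 0.166, 1.44), *Cd36*, a fatty acid and carotenoid receptor (0.605 and 0.71, 1.05), the nuclear receptors *Rxra* (0.47 and 0.623, 0.84) and *Rara* (0.278 and 0.301, 0.55), *Rdh5* (0.0607 and 0.078, 0.81, named after its values were seen) and *Dgat1*, for which the summed level was 8.56 at the bottom and 8.52 at the tip and the fitted log2 fold 0.46. The list's median log2 fold was -0.76, beside -0.08 over all genes. These folds rest on TMM scaling, and several tip folds were larger than the summed levels show. With library totals alone the median over all genes was -0.52, and 1858 genes were higher at the tip against 3338 with TMM. Calls of the list under that scaling are not given here. *Bco1* and *Bco2*, the 2 carotenoid oxygenases, therefore passed in opposite directions.

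By segment, 15 of 30 genes of the list with at least 50 UMIs were at least 2-fold higher in duodenal than in ileal enterocytes and 4 were at least 2-fold lower, where 30.1% of all genes were that far apart in either direction. *Scarb1* stood at 0.386, 0.0185 and 0.000897 UMIs per 10000 in duodenum, jejunum and ileum, from 1552, 81 and 3 UMIs, a ratio of duodenum to ileum of 431 (95% counting interval 147 to 2091). *Bco2* stood at 0.545, 0.168 and 0.103. *Plb1*, the brush border phospholipase that can hydrolyse retinyl esters, ran the other way, with no UMI in duodenal, 0.901 per 10000 in jejunal and 10.2 in ileal enterocytes. Against a floor of 3 UMIs in the duodenal library, *Plb1* was 13615-fold higher in the ileum. The ratio of duodenum to ileum had an upper 95% counting limit of 9.03e-05. *Cd36* peaked in the jejunum like *Rbp2*, at 0.473, 1.74 and 0.1. The receptor gene *Rxra* lay nearly level, at 0.598, 0.595 and 0.575, as did *Rxrb* at 0.148, 0.139 and 0.129.

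**Figure D5:**
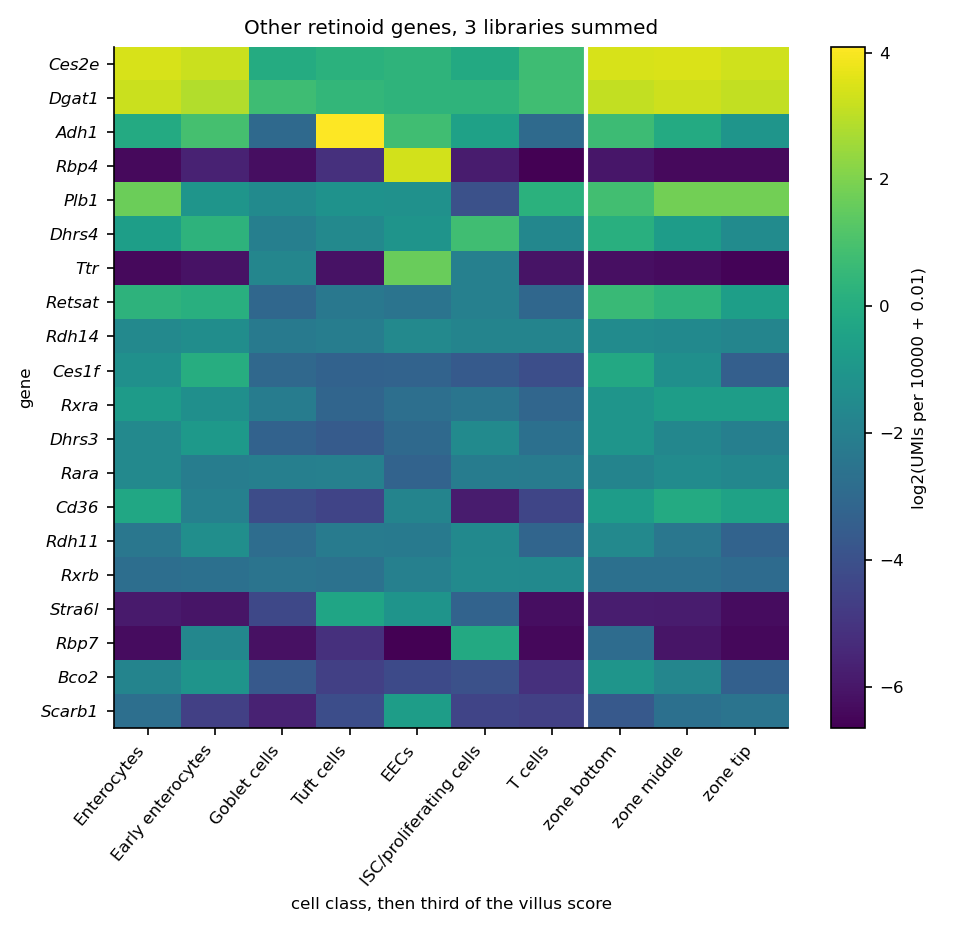
Summed level over the 3 libraries, as log2(UMIs per 10000 + 0.01) by colour, of the 20 other retinoid genes named by the rule (rows) in 7 cell classes and in 3 zones of the villus score (columns). *Rbp4* and *Ttr* stand out in EECs and *Adh1* in tuft cells, and *Ces2e* and *Dgat1* are high in both enterocyte classes and in every zone.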

How the data were processed

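Single-cell RNA was measured in 3 libraries, 1 for each segment. Per the study's methods and the labels, the authors aligned reads with Cell Ranger 3.0.2 (GRCm38/mm10) and deposited raw UMI counts per gene and barcode. Nothing was normalised before deposit. From these counts, cells were kept between 800 and 50000 UMIs and between 200 and 6000 genes, with a mitochondrial share of UMIs up to 40%, the libraries were integrated and clustered with Seurat 5.3.0 (R 4.3.3; 2000 variable genes less 16 reported here, 30 components, resolution 0.8), and clusters were named from marker lists. The naming rules were adjusted after the clusters were seen. Scrublet (scanpy 1.11.5) called 0, 0 and 146 doublets in duodenum, jejunum and ileum, so it did not work in the first 2 libraries, and doublets were kept. Sums of at least 10 cells per library and class or zone were tested with edgeR 4.0.16 (quasi-likelihood, TMM, library block, Benjamini-Hochberg at 0.05), with DESeq2 1.42.0 as an alternative. Levels carry exact Poisson and shares exact binomial 95% intervals (scipy 1.17.1). A count of 0 was given a floor of 3 UMIs. PCR copies were collapsed by UMI, and intervals cover counting error only. Depth was 57079945 to 66148396 UMIs per library.

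Named genes were the 6 members, up to 20 genes of a list of 49 retinoid genes by mean level among those that passed in at least 1 contrast, and the 3 genes most like each member, with exceptions marked. Some results are not reported here. Members and lists were chosen with earlier results of these data known. On simulated counts with 2-fold changes, the test recovered 24.7% of 194 changed genes in enterocytes against goblet cells (11369 genes, 9 false calls) and 54.3% of 197 in tip against bottom (11256 genes, 10 false calls). Other scalings, low-count filters, cell limits, clusterings, zone definitions and left-out libraries were tried.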

Additional observations from a re-analysis of the deposited data

Results flagged for a closer look

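Some ratios had a 95% counting interval wholly above 1 in at least 1 segment and wholly below 1 in another. With 1 library per segment none of these differences was tested. Early enterocytes against enterocytes gave ratios of 1.20, 0.826 and 0.0547 for *Rbp2* in duodenum, jejunum and ileum, 0.844, 1.24 and 1.22 for *Lrat*, and 1.83, 3.09 and 0.688 for *Aldh1a1*. For *Isx* the ratios of goblet cells to enterocytes were 1.55, 0.824 and 0.750, and those of ISC/proliferating cells to enterocytes 2.14, 1.43 and 0.679. The tip to bottom ratio of *Rbp2* was 1.10, 0.990 and 3.13.

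The genes were also present in barcodes that the study's limit on mitochondrial UMIs removes, 5129 (duodenum), 3689 (jejunum) and 1291 (ileum). These barcodes were given no cell class and the other limits were not applied to them. Their mix of cells is thus unknown, and the enterocyte values beside them are not of like cells. Summed over the libraries, and per 10000 UMIs of nuclear genes, these barcodes held *Rbp2* at 59.9, *Aldh1a1* at 1.30, *Rdh7* at 1.16, *Isx* at 0.581, *Lrat* at 0.474 and *Bco1* at 0.358, each above the limit that a count of 0 allows. On the same scale *Rbp2* stood at 36.5, 104 and 10.6 in the removed barcodes of duodenum, jejunum and ileum and at 56.1, 161 and 36.0 in the enterocytes kept. *Rdh7* stood at 1.37, 0.905 and 0.966 in the removed barcodes and at 1.28, 1.09 and 0.629 in enterocytes, higher in the removed barcodes of duodenum and ileum. *Lrat* was higher in the removed barcodes of all 3 segments, at 0.624, 0.296 and 0.323 against 0.534, 0.243 and 0.184 in enterocytes. *Bco1* kept its order over the segments in the removed barcodes, at 0.528, 0.183 and 0.0701.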

How the results depend on the processing

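No paired analysis was possible because the segments, with 1 library each from the same pooled mice, share only 1 replicate number. Classes and zones were compared within libraries, with the library as a block, and without the library block no member passed as higher in early enterocytes (0 against 1; *Rdh7* adjusted p = 0.14), at the tip (0 against 1; *Bco1* tip against bottom 2.17, adjusted p = 0.113), in the middle or at the bottom in middle against bottom (0 and 0 against 1 and 2) or in the middle in tip against middle (0 against 3). *Lrat* tip against bottom did not pass either (-0.97, adjusted p = 0.141).

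Of 774 log2 folds of members under alternatives, 707 kept direction and side of the threshold, 42 no longer passed, 6 newly passed and 19 reversed. Of 300 member counts 277 stayed within 1.5 times. The count higher at the tip was 2 with DESeq2, with no filter on low counts, with at most 20% mitochondrial UMIs and with early enterocytes left out, since *Rbp2* joined. With no filter 2 members were higher in enterocytes than in early enterocytes. In middle against bottom, 1 member was higher at the bottom with at most 20% mitochondrial UMIs, with unnamed absorptive clusters counted and with the score cut in 5, and 0 were higher in the middle with early enterocytes left out. Leaving out each library gave 0 (jejunum) to 2 (ileum) members higher in early enterocytes, 0 to 2 higher at the bottom and 0 to 1 in the middle in middle against bottom (0 without the jejunum, 1 at the bottom without the duodenum), and 0 (jejunum or ileum) to 2 higher in the middle in tip against middle. At least 2-fold apart were 5 members between duodenum and jejunum with at most 20% mitochondrial UMIs, and 1 between jejunum and ileum at the tip.

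Reversed log2 folds, none of which had passed except *Isx* against ISC/proliferating cells, were as follows. With library totals alone *Lrat* enterocytes against early enterocytes was -0.12, and *Isx* was -0.34 against ISC/proliferating cells, -0.37 in tip against bottom and -0.061 in tip against middle. *Isx* against goblet cells was -0.051 with DESeq2 and -0.060 with RLE size factors. With no library block *Isx* against early enterocytes was 0.026 and *Bco1* against EECs 0.10. In middle against bottom, *Lrat* was 0.17 with at most 20% mitochondrial UMIs and 0.022 with the score cut in 5, and *Isx* was 0.092 with early enterocytes left out. Leaving out each library gave ranges of -0.53 to 0.10 for *Isx* and -1.06 to 0.21 for *Aldh1a1* against early enterocytes, -0.16 to 0.63 for *Isx* against goblet cells, -0.065 to 1.21 for *Isx* against ISC/proliferating cells, -0.96 to 0.11 for *Bco1* against EECs, -0.17 to 0.10 for *Lrat* in middle against bottom and -0.063 to 0.80 for *Bco1* in tip against middle.

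Reversed ratios without a test were *Rbp2* duodenum to ileum (0.895 in the middle zone), *Lrat* jejunum to ileum (0.936 in the middle and 0.844 at the tip), *Rdh7* duodenum to jejunum (0.877 with at most 20% mitochondrial UMIs, 0.943 with T cell levels subtracted and 0.758 at the bottom), *Aldh1a1* jejunum to ileum (1.21 at the bottom), *Rbp2* tip to bottom in the jejunum (1.08 with the score cut in 5 and 1.03 with nuclear UMIs) and *Isx* tip to bottom in the duodenum (1.20 with early enterocytes left out). Causes were not tested.

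Counts over all genes moved by more than 1.5 times in 52 of 258 cases. Higher in enterocytes than in EECs were 1588 (library totals) to 3871 genes against 3874, and higher in EECs 2273 to 5352 against 2730. Higher at the tip than at the bottom were 1620 to 3646 genes against 3338, and higher at the bottom 1893 to 5413 against 3851. The ranges were 23 to 2459 and 155 to 2561 for middle against bottom and 0 to 1591 and 0 to 1739 for tip against middle. Leaving *Pkib* out of the landmarks and leaving early enterocytes out of the zones were chosen after seeing the data. The 24 jejunal EECs held 14 UMIs of *Bco1* and none of *Lrat* or *Isx*.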
